A study of Mus musculus with 9 samples.

Results

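ETS transcription factors are the nuclear proteins through which the kinase ERK reaches much of its transcriptional program, and 10 of them that are known to lie downstream of ERK were followed here. They were taken by gene name, and all 10 were found among the 18275 genes of the expression table. They comprise the PEA3 group (Etv1, Etv4 and Etv5), the founding ETS pair (Ets1 and Ets2), the ternary complex factors (Elk1, Elk3 and Elk4), the repressor Erf, and Gabpa, the DNA-binding subunit of the GABP complex. The study sequenced mRNA from the dissected hippocampus of adult male C57BL/6N mice, 1 library per animal, with 4 Nestin;BrafKE/+ mice (below, mutants) and 5 Braf+/+ mice (controls). Mutants carried 1 allele of Braf labelled K499E, a kinase variant of the RASopathy cardiofaciocutaneous syndrome, expressed from the gene's own locus after Nestin-Cre recombination. Nestin-Cre acts in neural stem cells, so that neurons, astrocytes and oligodendrocytes descending from them carry the allele, and any one of these cell types may contribute to a value. The experiment asks how a persistently activated RAF-ERK cascade changes transcription in the adult hippocampus.

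ERK controls ETS factors in more than one way. The ternary complex factors sit with serum response factor (SRF) on the promoters of immediate early genes and are switched on when ERK phosphorylates them, and Erf is a repressor that ERK drives out of the nucleus, so that the activity of these proteins can change while their mRNA does not. The PEA3 group differs in that its genes are themselves transcribed in response to FGF and ERK signals, with the repressor Capicua (Cic) holding Etv1, Etv4 and Etv5 down until ERK inactivates it, and in the developing brain Etv5 acts downstream of MEK when radial progenitors begin to form glia.

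Etv5 was the only member whose mRNA passed the test for a genotype difference, being 49.8% higher in mutants. Etv4 had an estimate of nearly the same size with a wider interval and narrowly missed the threshold, and that of Etv1 was near 0. None of the other 7 members passed, Ets2 and Elk4 having the lowest values relative to controls. In the limma fit over 16196 genes, 466 genes (2.88%) passed an adjusted p of 0.05, of which 246 (1.52%) were higher and 220 (1.36%) lower in mutants. The count for the members was 1 of 10, higher, and 0 lower.

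Promoter sequences of Etv5 and Etv1 are shown because CIC binds short, well defined sites and because these PEA3 genes differed in their values. They were taken from the RefSeq promoter table of build GRCm38.p6, which held 12 promoters for 8 of the 10 members, that is, all but Etv4 and Ets1. Each line gives the 250 bases before an annotated start, 5′ to 3′ on the gene's strand. The first is the inner of the annotated Etv5 starts (chr16:22438369-22438618, minus strand) and the other an Etv1 start (chr12:38779832-38780081, plus strand). Capitals mark TGAATGG on either strand, which appears as CCATTCA on the strand opposite.
Etv5 inner promoter: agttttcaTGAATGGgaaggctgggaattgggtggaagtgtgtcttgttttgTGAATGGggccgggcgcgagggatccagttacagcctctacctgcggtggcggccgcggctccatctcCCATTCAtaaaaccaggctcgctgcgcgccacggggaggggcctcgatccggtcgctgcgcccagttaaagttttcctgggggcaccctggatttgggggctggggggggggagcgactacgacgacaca
Etv1 promoter: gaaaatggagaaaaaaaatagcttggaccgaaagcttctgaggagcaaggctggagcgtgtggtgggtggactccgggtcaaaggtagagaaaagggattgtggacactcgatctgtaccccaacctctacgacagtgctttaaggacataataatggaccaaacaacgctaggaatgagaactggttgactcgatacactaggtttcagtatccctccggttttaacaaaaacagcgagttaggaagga
Among published CIC octamers only TGAATGAA and TCAATGAA were searched, with the ETS site ACCGGAAG, on both strands. The window ran from 250 bases before to 50 bases after each start. These strings lay in 0 of the 12 member promoters. Over all 32851 promoters of the table, 1.3% held TGAATGAA, 0.749% held TCAATGAA and 2.3% held ACCGGAAG. The shorter string TGAATGG, which shares its first 6 letters with TGAATGAA and was chosen after the Etv5 sequence had been seen, was present in 3.59% of promoters. It occurred at 242, 198 and 130 bases before the inner Etv5 start, and this was the only promoter of the 32851 (0.00304%) with 3 or more copies. As the string was picked from this sequence, its rarity elsewhere follows in part from the choice and is no evidence of a CIC site. In the other 11 member promoters, the Etv1 sequence shown among them, TGAATGG was not found. These matches describe letters in a window and were not tested for binding or for a part in the genotype differences. Other variants of the CIC site were not searched.

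**Figure D1:**
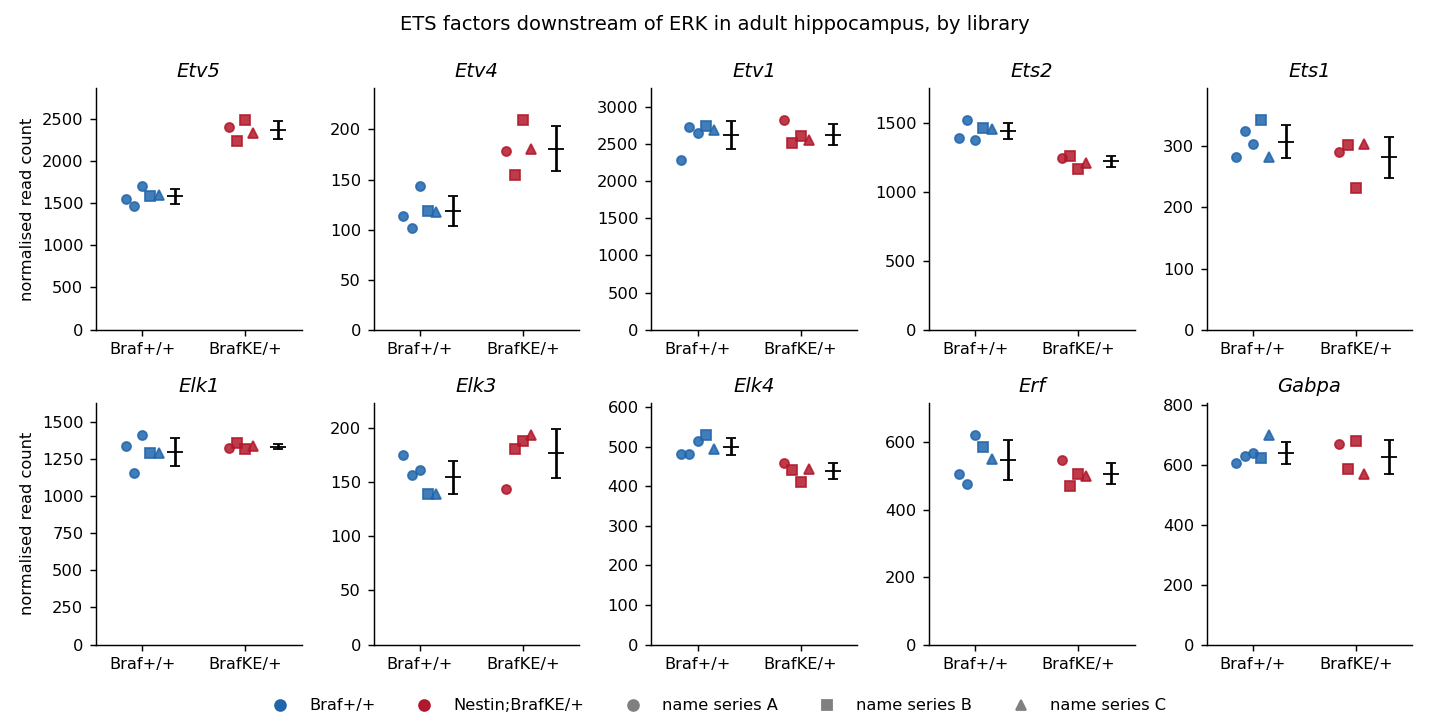
Normalised read count (y axis, from 0) of each ETS factor in each library. Blue points are the 5 Braf+/+ and red points the 4 Nestin;BrafKE/+ libraries, point shapes give the series of library names, and black bars give the mean and SD of a group; Etv5, Etv4, Ets2 and Elk4 show no overlap between genotypes.

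Within the PEA3 group, Etv5 (ENSMUSG00000013089, GRCm39 chr16:22200052-22259662, minus strand) encodes an activator that ERK signaling induces in many developing tissues. Its normalised read count was 2395, 2236, 2486 and 2335 in mutants 1 to 4 and 1548, 1461, 1702, 1582 and 1595 in controls 1 to 5. Every mutant was higher than every control, the gap between the lowest mutant and the highest control being larger than the spread within either group. The means were 2363 ± 105 (SD, n = 4) and 1578 ± 87.1 (SD, n = 5), a log2 fold change of 0.58 (standard error 0.06, adjusted p = 0.00193, limma), or an increase of 49.8% (95% interval 36.1 to 64.8). Etv5 ranked 13 of the 16196 genes by p. The library names fall into 3 series, A (1 mutant, 3 controls), B (2 mutants, 1 control) and C (1 mutant, 1 control), whose meaning the labels do not give, and the difference within each was 0.61, 0.58 and 0.55 on the log2 scale. Leaving out any 1 of the 9 libraries kept the call, with log2 fold changes of 0.56 to 0.61. Without mutant 1, control 4, mutant 4 or control 5, a series is left with 1 genotype and no longer bears on the difference. Such an analysis drops a whole series, and those without mutant 4 and without control 5 give the same estimate. As a single value, the difference gave p = 0.0417 in a two-sided exact permutation test within series (24 splits) and p = 0.00794 with libraries exchanged across series, each the smallest p that the design allows. The test across series takes all libraries as independent, which the authors' batch adjustment makes doubtful.

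Etv4 (ENSMUSG00000017724, GRCm39 chr11:101660568-101676197, minus strand), its paralog, is likewise induced by FGF and ERK. The counts were 179, 155, 210 and 180 in mutants 1 to 4 and 113, 102, 143, 119 and 117 in controls 1 to 5. Again no mutant overlapped a control, mutant 2 and control 3 being the closest. The log2 fold change was 0.60 (standard error 0.15, adjusted p = 0.0581), 51.8% higher with a 95% interval of 20.9 to 90.4, and the differences within series A, B and C were 0.59, 0.60 and 0.62. Etv4 therefore missed the threshold with an estimate as large as that of Etv5 and a wider interval. It passed in 3 of 23 alternative analyses, namely without a term for the name series (adjusted p = 0.00659), with a replicate block (adjusted p = 0.0138) and without control 3 (adjusted p = 0.0473), the adjusted p running from 0.00659 to 0.999 over the 23. The analyses without the series term and with the replicate block take libraries of a series as independent, so their p-values may be too small.

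Etv1 (ENSMUSG00000004151, GRCm39 chr12:38828851-38920483, plus strand) is the PEA3 member best known from maturing neurons such as cerebellar granule cells. Its counts were 2828, 2520, 2610 and 2550 in mutants 1 to 4 and 2286, 2727, 2650, 2738 and 2690 in controls 1 to 5. Mutants 2 to 4 lay among the controls, mutant 1 was the highest library and control 1 the lowest. The log2 fold change was 0.01 (standard error 0.07, adjusted p = 0.975), with a 95% interval from -0.15 to 0.16, so that a change as large as that of Etv5 lay outside it. The sign was not stable, since the difference was 0.15 in series A, which holds both of those libraries, and -0.09 and -0.08 in series B and C. It was -0.09 without mutant 1 and -0.03 without control 1.

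Whether the PEA3 genes differed from each other was tested on their ratios within a library, which do not depend on how libraries were scaled. The Etv5 to Etv1 ratio was 0.900 in mutants and 0.603 in controls (geometric means), with ranges of 0.847 to 0.953 and 0.536 to 0.677 that did not overlap. This was a log2 difference of 0.58 (95% interval 0.33 to 0.82). The exact permutation test within series gave p = 0.0417, the smallest possible, and 0.125 after adjustment over the 3 pairs. With 24 splits, an adjusted p under 0.05 would need all 3 ratios to reach that smallest p. The adjusted value therefore cannot decide whether the ratios differed. With libraries exchanged across series the adjusted p was 0.0119, but that test takes all libraries as independent, which batch-adjusted values are not. The Etv4 to Etv1 ratio moved by 0.60 (95% interval 0.18 to 1.02), for which the within-series exact permutation p was 0.0833 (adjusted 0.125) and the adjusted p across series 0.0119. Between Etv5 and Etv4 the log2 difference was -0.02 (95% interval -0.26 to 0.22, exact permutation p = 0.833), the ratio being 13.1 in mutants and 13.3 in controls.

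**Figure D2:**
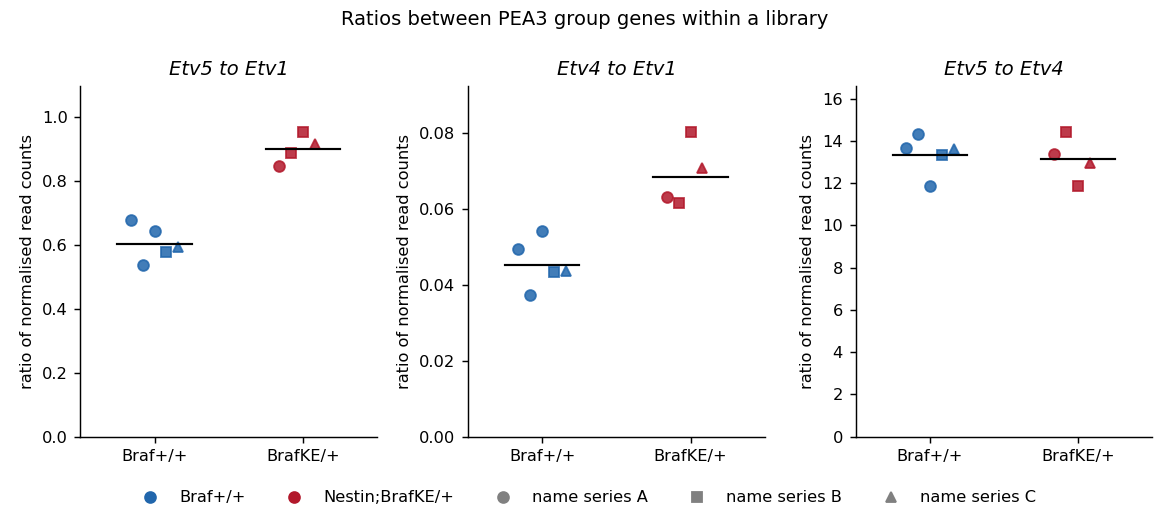
Ratio of normalised read counts between PEA3 group genes in each library (y axes from 0), for 5 Braf+/+ (blue) and 4 Nestin;BrafKE/+ (red) libraries, with horizontal lines at the geometric mean and shapes for the name series. The Etv5 to Etv1 ratio lies between 0.536 and 0.677 in controls and between 0.847 and 0.953 in mutants, and the Etv5 to Etv4 ratio overlaps.

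Per kilobase of merged exon, which allows genes to be compared, the share of each PEA3 gene in the group's level is given here without a test. Etv5 supplied 48.4% ± 1.78 (SD, n = 5) of the group's summed level per kilobase in controls and 56.3% ± 0.681 (SD, n = 4) in mutants. The share of Etv1 was 43.0% ± 2.39 in controls and 33.6% ± 1.32 in mutants. Etv4 was the minor member in both, at 8.60% ± 0.793 and 10.2% ± 0.882. Shares of a sum are tied to each other. That of Etv1 was lower in mutants although its own level per kilobase was 187 in controls and 188 in mutants. The shares also depend on the length used. With the longest annotated transcript, the level of Etv1 in controls (387) was above that of Etv5 (306).

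Ets2 (ENSMUSG00000022895, GRCm39 chr16:95502847-95522095, plus strand), an activator that ERK phosphorylates, had counts of 1251, 1261, 1170 and 1214 in mutants and 1393, 1526, 1382, 1466 and 1456 in controls. All mutants were lower than all controls. The log2 fold change was -0.24 (standard error 0.06, adjusted p = 0.0563), a change of -15.3% with a 95% interval of -22.5 to -7.36%, and it was -0.20, -0.27 and -0.26 in series A, B and C. The gene passed only without the series term (adjusted p = 0.00445) or with the replicate block (adjusted p = 0.0237), the adjusted p running from 0.00445 to 0.999 over the alternatives. Without the series in the fit, p-values from batch-adjusted values may be too small.

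Ets1 (ENSMUSG00000032035, GRCm39 chr9:32547517-32669116, plus strand), the close relative of Ets2 known from endothelial cells and lymphocytes, had counts of 290, 303, 232 and 303 in mutants and 282, 325, 304, 343 and 283 in controls. Mutant 3 was the lowest library, and the other mutants lay within the control range. The log2 fold change was -0.13 (standard error 0.12, adjusted p = 0.610).

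Of the ternary complex factors, Elk4 (ENSMUSG00000026436, GRCm39 chr1:131935116-131960350, plus strand) had counts of 459, 442, 410 and 444 in mutants and 481, 482, 514, 530 and 494 in controls, so the groups did not overlap. Its log2 fold change of -0.19 (standard error 0.08) had an adjusted p of 0.216 and was -0.10, -0.32 and -0.16 within series A, B and C. Elk1 (ENSMUSG00000009406, GRCm39 chrX:20798091-20816852, minus strand), the first factor of this class described as an ERK substrate, had counts of 1320, 1357, 1315 and 1337 in mutants and 1337, 1152, 1413, 1287 and 1289 in controls. The mutants were tightly grouped inside the control range, and the log2 fold change was 0.04 (standard error 0.07, adjusted p = 0.784). For Elk3 (ENSMUSG00000008398, GRCm39 chr10:93083276-93147056, minus strand), which represses transcription until ERK phosphorylates it and is known from blood vessels, the counts were 144, 180, 188 and 193 in mutants and 175, 156, 161, 139 and 139 in controls. Mutants 2 to 4 were higher than every control and mutant 1 was not, giving a log2 fold change of 0.19 (standard error 0.14, adjusted p = 0.512) that was -0.19 in series A and 0.40 and 0.47 in series B and C.

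Erf (ENSMUSG00000040857, GRCm39 chr7:24939305-24950186, minus strand), the ETS repressor that ERK exports from the nucleus, had counts of 548, 471, 506 and 501 in mutants and 505, 475, 622, 586 and 551 in controls. The log2 fold change was -0.11 (standard error 0.10, adjusted p = 0.607). Gabpa (ENSMUSG00000008976, GRCm39 chr16:84631140-84660672, plus strand), which serves genes of mitochondrial respiration in most cells, had counts of 669, 586, 681 and 569 in mutants and 606, 628, 638, 624 and 701 in controls, and its log2 fold change was -0.03 (standard error 0.09, adjusted p = 0.878). Both sets of libraries overlapped for these 2 genes.

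Across the members, 5 estimates were positive and 5 negative, with a median log2 fold change of -0.01 beside 0.00 for all 16196 genes. The median was 0.58 in the PEA3 group and -0.11 in the other 7. Mutant and control libraries did not overlap for 4 of 10 members (Etv5, Etv4, Ets2 and Elk4), whereas 2550 genes, or 15.7% of those tested, had no overlap. As members were chosen with results of these data known, no test was made over the list. In bulk tissue, fewer cells of a type and less RNA per cell cannot be told apart, which holds for all values given here. Elk1 overlaps Uxt, Ets1 overlaps Gm69170 and Elk4 overlaps Gm29103 on the same strand in the annotation, so the counts of these 3 members are uncertain where reads could be assigned to either gene.

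**Figure D3:**
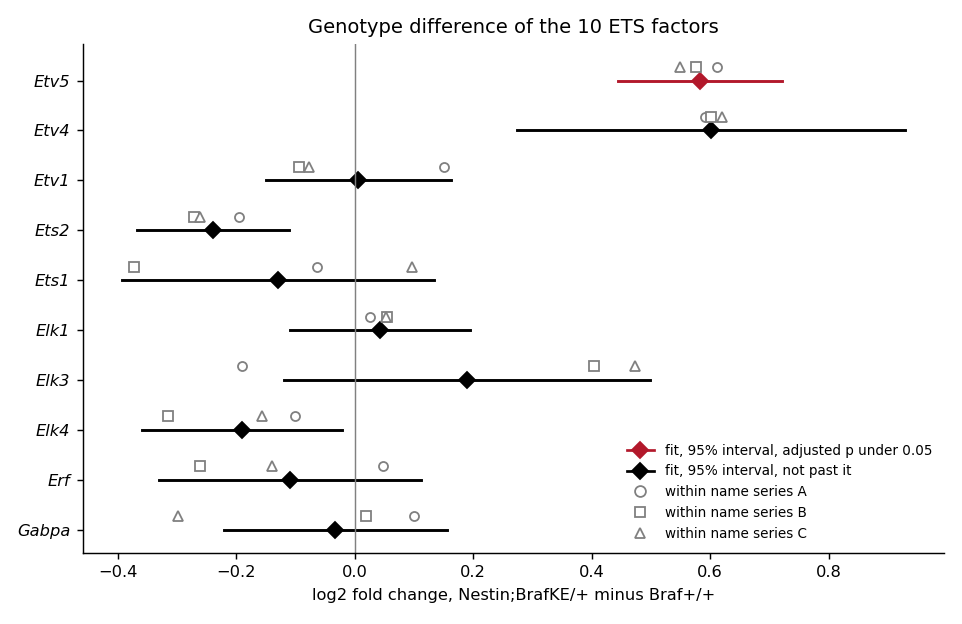
Log2 fold change of each ETS factor (x axis, Nestin;BrafKE/+ minus Braf+/+) with its 95% interval from the limma fit (diamonds and lines, red where the adjusted p was under 0.05), and the difference within each of the 3 name series (open grey shapes). Etv5 is the only red line at 0.58, and all 3 series share a sign for Etv5, Etv4, Ets2, Elk4 and Elk1.

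The order of the members by level per kilobase of merged exon differed between genotypes at its top. In controls Ets2 came first with 233 ± 9.49 (SD, n = 5), followed by Etv5 at 210 ± 11.6, Etv1 at 187 ± 13.5 and Elk1 at 172 ± 12.6. Then came Erf at 115 ± 12.5, Gabpa at 76.0 ± 4.30, Elk4 at 42.4 ± 1.81, Etv4 at 37.5 ± 4.78, Ets1 at 36.2 ± 3.14 and Elk3 at 26.5 ± 2.65. Each neighbouring pair overlapped in its range over the 5 controls except Elk1 and Erf, Erf and Gabpa, Gabpa and Elk4, and Ets1 and Elk3. In mutants Etv5 was first at 315 ± 14.0 (SD, n = 4), above Ets2 at 197 ± 6.62 and Etv1 at 188 ± 9.94, and no mutant range of another member reached that of Etv5. With the longest annotated transcript as the length, Etv1 was first in controls (387), before Ets2 (363) and Etv5 (306), and Etv5 remained first in mutants (459). The top of the control order thus depended on the length used, and the first place of Etv5 in mutants did not.

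Library by library, Etv4 followed Etv5 closely. After the mean of each name series was removed, Pearson's r between them over the 9 libraries was 0.959, while that of Etv5 with Etv1 was 0.07 and with Ets2 -0.963. The 4 mutants and 5 controls form separate clusters for Etv5, so these coefficients contain the genotype difference, and they are descriptions with no test. Of 13231 genes with a mean of at least 50, the 5 most like Etv5 were Dusp6, the ERK phosphatase of the feedback loop (r = 0.994), Kcnip1, a subunit of A-type potassium channels (0.992), Tagln3 (0.988), the secreted matrix protein gene Spon1 (0.984) and the nuclear protein gene Midn (0.984). All 5 were higher in mutants, with log2 fold changes from 0.37 for Tagln3 to 0.99 for Dusp6 and adjusted p-values from 0.000325 to 0.00488. For Etv4 the nearest were the p38 kinase gene Mapk11 (r = 0.993), the noncoding RNA gene Gas5 (0.986), the glycine transporter gene Slc6a9 (0.980), Tmem125 (0.976) and Nsmaf (0.970), of which only Tmem125 passed the test (log2 fold change 0.75, adjusted p = 0.0271). The genes nearest to Etv1, which were Ythdc1 (r = 0.982), Cgrrf1 (0.967), Cobl (0.963), Bmp2k (0.963) and Pgrmc2 (0.951), had log2 fold changes between -0.09 and 0.01 and did not pass.

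**Figure D4:**
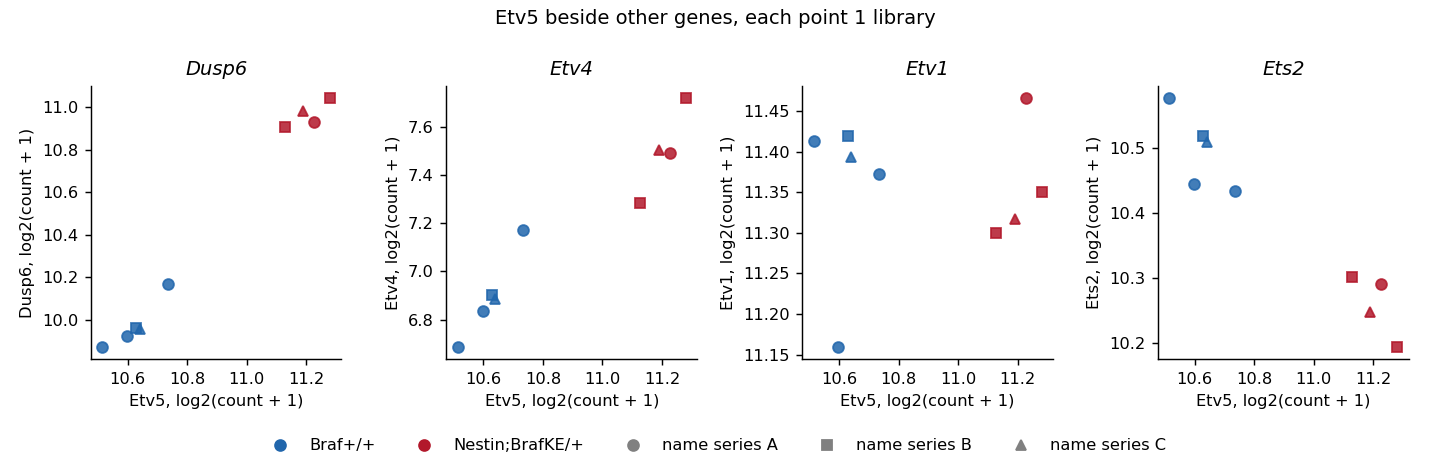
Each panel plots 1 gene (y axis) against Etv5 (x axis), both as log2(normalised read count + 1), with 1 point per library, blue for Braf+/+, red for Nestin;BrafKE/+ and shapes for the name series. Dusp6 and Etv4 are higher and Ets2 is lower in the 4 mutants, where Etv5 is higher, and the Etv1 values of the genotypes overlap.

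Regulators of the ETS factors were examined from a list of 12 genes, of which 2 rose and 0 fell. Trib2, which like its paralog Trib1 encodes an adaptor of COP1, a ubiquitin ligase with PEA3 proteins among its substrates, had a mean count of 735 ± 43.5 (SD, n = 5) in controls and 1094 ± 28.6 (SD, n = 4) in mutants, and rose by a log2 fold change of 0.57 (standard error 0.07, adjusted p = 0.00261). Trib1 was 413, 246, 371 and 310 in mutants and 155, 170, 204, 224 and 201 in controls, with no overlap. Its log2 fold change was 0.79 (standard error 0.18, adjusted p = 0.0420), but it kept an adjusted p under 0.05 in only 1 of the 9 analyses that left out a library, whereas Trib2 did in 9 of 9. The repressor gene Cic was at -0.04 on the log2 scale (adjusted p = 0.804) and the ternary complex partner Srf at 0.07 (adjusted p = 0.855). The other genes of the list, among them Cop1, Gabpb1, Gabpb2 and the CIC partners Atxn1 and Atxn1l, did not pass either.

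Upstream of the ETS factors, 1 of 11 RAF, MEK, ERK and RSK kinase genes examined fell and 0 rose. Braf itself was 2469, 2190, 2144 and 2252 in mutants and 2790, 2680, 2635, 3030 and 2795 in controls, a log2 fold change of -0.30 (standard error 0.07, adjusted p = 0.0378). The counts do not separate the mutated from the normal allele, so they do not check the genotype labels. The Braf call was not stable, being kept in 2 of the 9 analyses that left a library out, some of which drop a whole series. Among 9 FGF receptor and ligand genes 2 rose, the receptor gene Fgfr1 by 0.53 (standard error 0.06, adjusted p = 0.00226) and its ligand Fgf1 by 0.35 (standard error 0.07, adjusted p = 0.0243). The Fgfr1 call was kept whichever library was left out, and the Fgf1 call in 6 of 9 such analyses, with an adjusted p of up to 0.143 without control 4.

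The feedback genes that ERK induces, which share this mode of control with the PEA3 group, gave the largest count of any list beside the members. The list was chosen with earlier results of these data known, so its count was not tested against that of all genes. Of 16 genes 9 rose and 0 fell, against 1.52% of all genes rising, and the list's median log2 fold change was 0.39. They were the ERK phosphatase genes Dusp4 (0.95 ± 0.09, adjusted p = 0.00106), Dusp5 (0.49 ± 0.09, adjusted p = 0.0172) and Dusp6 (0.99 ± 0.07, adjusted p = 0.000325), the RAS-RAF inhibitors Spry2 (0.47 ± 0.10), Spry4 (0.87 ± 0.12), Spred2 (0.30 ± 0.05) and Spred3 (0.64 ± 0.07), and Ccnd1 (0.83 ± 0.09) and Phlda1 (0.50 ± 0.11), all as log2 fold change ± SE. The log2 fold change of Etv5 lay within the range of these 9. Dusp4, Dusp6, Spred3 and Ccnd1 kept their calls whichever library was left out, Spry4 did in 8 of 9 such analyses, Dusp5 and Spred2 in 6, Spry2 in 5 and Phlda1 in 3, and the list's count ranged from 4 without mutant 1 to 9. Spry1 was among those that did not pass, at 0.20 (adjusted p = 0.458). Of the 16 estimates, 11 were positive and 5 negative (Fosl1, Ier3, Il17rd, Epha2 and Epha4), and no negative one passed. The lowest was -0.72 for Fosl1, which was near the floor with a mean count of 13.8 over the 9 libraries.

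Genes that SRF and the ternary complex factors activate were followed with 10 immediate early genes, of which 1 rose and 1 fell, with a median of 0.04. Arc, whose protein acts at synapses, was 1542 ± 161 (SD, n = 5) in controls and 2632 ± 373 (SD, n = 4) in mutants (log2 fold change 0.77 ± 0.11, adjusted p = 0.00707), and Fos was 122 ± 13.1 in controls and 76.4 ± 8.84 in mutants (-0.67 ± 0.15, adjusted p = 0.0457). The Fos call held in only 1 of the 9 analyses with a library left out and the Arc call in 7. Egr1, the gene most often used as a readout of this complex, was at 0.30 (adjusted p = 0.308).

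Of 17 further ETS family genes 9 were in the table and 0 passed in the limma fit, 2 of them having an unadjusted p under 0.05. The largest difference was that of Spi1, the myeloid ETS factor of microglia, at 64, 50, 41 and 52 in mutants and 62, 72, 82, 97 and 76 in controls (log2 fold change -0.58, adjusted p = 0.167). Mutant 1 lay within the control range and the other 3 did not.

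**Figure D5:**
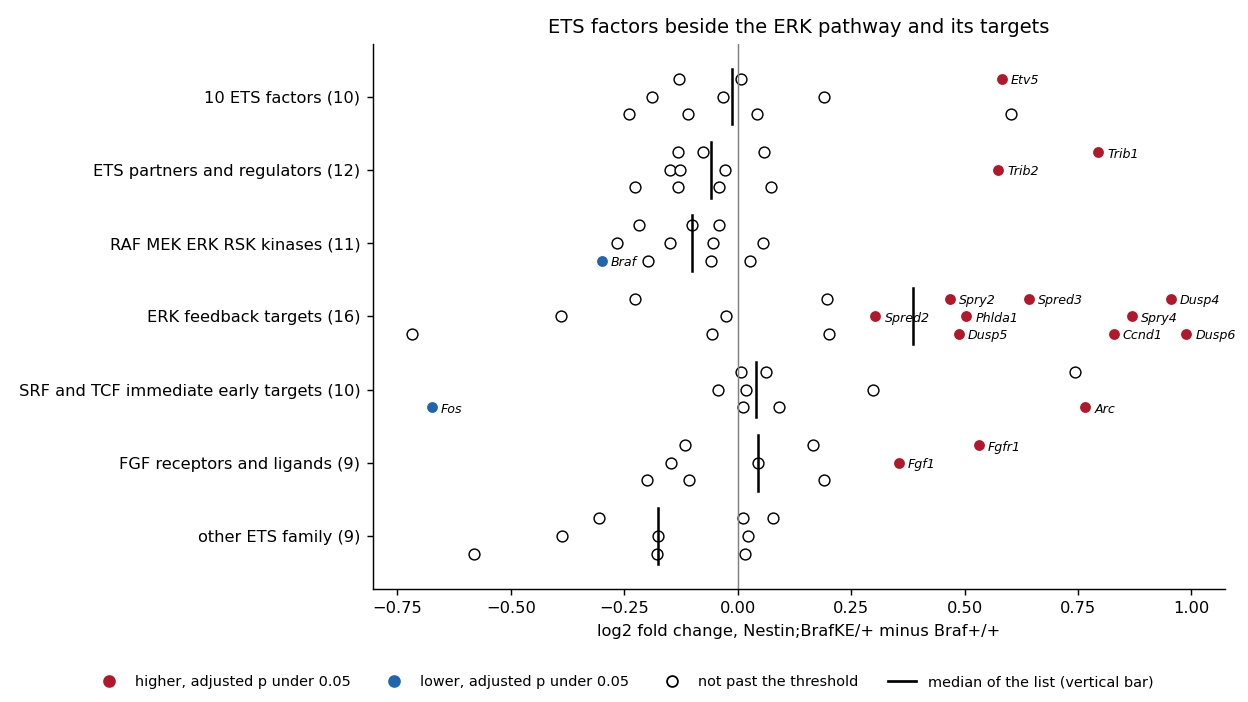
Log2 fold change (x axis, Nestin;BrafKE/+ minus Braf+/+) of every tested gene of 7 lists (rows, number of genes in brackets), filled red or blue where the adjusted p was under 0.05 and open otherwise, with a vertical bar at each list's median. Feedback targets of ERK hold 9 red points, the ETS factors 1 (Etv5), and the 9 other ETS family genes 0.

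Cell composition was followed with marker lists, since the ETS factors are not expressed evenly across cell types. All 7 hippocampal region markers had means of at least 1186 (Bok), which cannot check the tissue label without another tissue beside them. Their summed level was 16104 to 16382 in controls and 19245 to 19546 in mutants, 3 of them (Wfs1, Fibcd1 and Calb1) having risen. This count was 1 without mutant 1, mutant 3 or control 4, and 3 without any other library. The table holds no value of 0 for any gene, so no marker could be at 0. Astrocyte markers rose in 3 of 12 (Gfap, Aldoc and S100b), with summed levels of 119130 to 132813 in mutants and 111125 to 124978 in controls and a mean log2 difference of 0.24. For oligodendrocyte markers 4 of 10 rose (Mog, Mag, Mobp and Cldn11), with sums of 129016 to 139159 in mutants and 94429 to 114552 in controls and a mean log2 difference of 0.32, and for their precursors 1 of 7 rose (Cspg4), with a mean difference of 0.30 and sums of 6654 to 7483 in mutants and 5286 to 6219 in controls. In these 3 lists the mean log2 level of every mutant was above that of every control, although the summed astrocyte levels overlapped. The calls were less stable. With a library left out, the astrocyte count ran from 0 (without mutant 1) to 4. The oligodendrocyte count ran from 0 (without mutant 1, mutant 3 or control 4) to 6, and the precursor count from 1 to 2. Leaving out mutant 1 or control 4 drops a whole series. With the astrocyte or the oligodendrocyte mean as a term in the limma fit, 0 genes passed in the whole table, and Etv5 was then at 0.47 (standard error 0.36, adjusted p = 0.999) and 0.45 (standard error 0.10, adjusted p = 0.458). Both means separate the genotypes completely, so these fits tell genotype from the added term only in part, the astrocyte fit hardly at all. The standard error of Etv5 was 0.06 without an added term. No conclusion about cell composition is drawn from the lost calls.

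Etv5 was also measured against the mean log2 level of the 12 astrocyte markers in the same library. This comparison was added after the data had been seen. On this scale Etv5 was higher in mutants by 0.34, with no overlap (exact permutation p = 0.0417 within series, the smallest possible). The 3 name series gave 0.36, 0.31 and 0.37. On the same scale Etv4 was higher by 0.36, with overlap (exact permutation p = 0.0833), and the other 8 members were lower by values from -0.05 for Elk3 to -0.48 for Ets2. Separation on this scale was not particular to Etv5, since Ets1, Ets2, Elk4, Erf and Gabpa were lower with no overlap and the same exact permutation p of 0.0417, which Elk1 also reached with overlap. The astrocyte mean was itself higher in every mutant than in every control, so this scale lowers any unchanged gene. Gabpa, for example, went from -0.03 to -0.27. The share of all genes without overlap on this scale was not computed. Values relative to the oligodendrocyte or precursor means were not computed either, and the part of cell composition in the Etv5 difference was not tested. The 10 endothelial markers, which bear on Ets1 and Elk3, had a mean log2 difference of 0.00, with 0 of 10 past the threshold in the limma fit and 0 at an unadjusted p under 0.05 (largest value Pecam1 at 0.17). Relative to them Ets1 was at -0.13 and Elk3 at 0.18. Microglial markers passed in 0 of 9 genes in the limma fit, with 3 at an unadjusted p under 0.05 (largest value Fcrls at 0.36) and sums of 6938 to 7607 in mutants and 6465 to 6990 in controls. Their mean log2 level was nevertheless higher in every mutant than in every control, by 0.11 on average, and 4 of the 9 genes had no overlap. Choroid plexus markers were lower in 8 of 8, with a median of -1.51 and 0 past the threshold (2 at an unadjusted p under 0.05, largest value Kcne2 at -1.86), and their sums ran from 4880 to 38643 in mutants and from 14510 to 426418 in controls, so that this tissue was unevenly present among libraries. Its part in the member values was not tested.

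Among 7 excitatory neuron markers Neurod2 fell (-0.53, adjusted p = 0.0103) and 0 rose, Nrgn being at 0.20 (adjusted p = 0.0945), and the mean log2 difference of the list was -0.01 with sums of 132704 to 156276 in mutants and 123680 to 140082 in controls. Inhibitory neuron markers passed in 0 of 7 in the limma fit, with 2 at an unadjusted p under 0.05, the largest value being 0.32 for Slc32a1, and summed to 15980 to 17837 in mutants and 14399 to 16175 in controls. Of 9 meningeal and mural markers Col1a1 rose (0.96, adjusted p = 0.0214), the list summing to 6260 to 6702 in mutants and 4918 to 7363 in controls. Without mutant 1, mutant 3 or control 4, 0 of these markers passed. Without mutant 1, 0 of the excitatory neuron markers passed. Blood markers were above 0 in 5 of 5 estimates, with a median of 0.43, 0 past the threshold in the limma fit and 4 at an unadjusted p under 0.05 (largest value Hba-a1 at 0.57), and they summed to 3489 to 6184 in mutants and 3180 to 3579 in controls. The part of these cell types in the member values was not tested.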

How the data were processed

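The authors made stranded mRNA libraries, trimmed the reads with TrimGalore, aligned them with STAR to GRCm39 (Gencode vM28), quantified them with Salmon, adjusted for batches they do not name, and scaled the result with DESeq2. The deposited values are a signal in these normalised counts, 1 per gene and library. In every library, 100% of them were multiples, by whole numbers, of a step of 0.993 to 1.00, and none was 0. Totals per library were 19551300 to 20091500 after scaling, so sequencing depth is unknown and no count model was used.

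Values were tested as log2(value + 1) with limma 3.58.1 (mean-variance trend, two-sided, Benjamini-Hochberg over all genes), with genotype and name series as terms, on genes with a mean of at least 10. Fold changes are on this scale and understate those of low genes. P-values measure the spread between libraries of different animals, as it stands after the authors' batch adjustment. Exact permutation tests were used for single values. Named are all members, the genes of each pathway and marker list past the threshold or, with none, the one with the largest difference, the 5 genes most like each PEA3 gene, and Braf. Further genes named without passing (Cic, Srf, Cop1, Gabpb1, Gabpb2, Atxn1, Atxn1l, Spry1, Fosl1, Ier3, Il17rd, Epha2, Epha4, Egr1, Nrgn and Bok) were chosen after their values were seen. The members and lists were chosen with earlier results of these data known. Gene positions and exon lengths came from Gencode vM39 (GRCm39, 99.5% of identifiers matched), and promoters from RefSeq (GRCm38.p6). Alternatives covered pseudocount, filter, scaling, series term, replicate block, weights, marker covariates and leaving out each library. Same-numbered mutant and control libraries correlated by -0.39, -0.08, 0.07 and 0.41 in their deviations, so the numbers do not pair the animals. Mutant and control libraries of the same series correlated negatively throughout, by -0.997 for mutant 4 and control 5 of series C. The deposited values thus appear to be adjusted for these series, and libraries of a series are not independent. Tests without the series take all libraries as independent, so their p-values may be too small. Raw reads and other experiments of the study were not analysed here, and 1 gene of a pathway list is not reported here.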

Additional observations from a re-analysis of the deposited data

Results flagged for a closer look

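Among 52 groups of values (26 genes in 2 genotypes), 3 held a library set apart from its group by Dixon's criterion, which chance meets in about 1 of 20 groups. Etv1 was lowest in Braf+/+ replicate 1, at a normalised read count of 2286, the next value being 2650. Dusp6, the gene whose pattern was most like that of Etv5, was highest among controls in Braf+/+ replicate 3 at 1148, the next being 996. Fgf1 was highest among mutants in Nestin;BrafKE/+ replicate 3 at 1419, the next being 1310. Without the first of these libraries the Etv1 difference was -0.03 on the log2 scale, and the calls of Dusp6 were kept without any single library.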

How the results depend on the processing

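Etv5 kept its direction in 23 of 23 alternative analyses and its call in 21, losing the call with the astrocyte (adjusted p = 0.999) and oligodendrocyte (adjusted p = 0.458) covariates. Both covariates separate the genotypes completely, so those fits tell genotype from covariate only in part. The standard error of Etv5 was 0.36 with the astrocyte covariate, 0.10 with the oligodendrocyte covariate and 0.06 with neither. The count of all genes past the threshold (466) was 2260 with no series term, 1405 with a replicate block, 165 with 4 name prefixes as the term, 258 with array quality weights, 0 with either of those covariates, and 42 to 371 with 1 library left out (42 without mutant 1, 169 without mutant 3, 278 without control 1, 97 without control 4). Leaving out mutant 1 or control 4 removes a whole series from the comparison, so these counts do not show the weight of 1 library alone. The count of members (1) was 4 with no series term, 3 with the replicate block, 0 with either covariate, and 1 to 2 with a library left out. The count over the 6 pathway lists (16) was 26 with no series term, 17 with the replicate block and 7 to 15 with a library left out (7 without mutant 1, 9 without mutant 3, 8 without control 4). The median of the PEA3 group less that of the others (0.69) was 0.22 and 0.50 with the astrocyte and oligodendrocyte covariates. With libraries exchanged across series, the Etv5 to Etv1 and Etv4 to Etv1 ratios differed by 0.58 and 0.60 with an adjusted p of 0.0119 each, and the Etv5 to Etv4 ratio by -0.063 to 0.018 with a library left out. Exchange across series, the fit with no series term and the replicate block all take libraries of a series as independent. Their p-values may therefore be too small and their counts too large.

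Among the fitted fold changes of the members, signs turned only where the threshold was not passed. Etv1 was at -0.033 with name prefixes, -0.28 and -0.16 with the astrocyte and oligodendrocyte covariates, and -0.087 to 0.060 with a library left out. With the astrocyte covariate Ets1 was at 0.95, Elk4 at 0.18 and Erf at 0.060, and with the oligodendrocyte covariate Elk1 was at -0.0066. Gabpa was at 0.00095 with the replicate block and -0.12 to 0.061 with a library left out, and Ets1 at -0.21 to 0.0012. The replicate block gave 0.69 for the PEA3 group less the others. The cause of these changes was not tested. Other scalings moved the median of all genes by less than 0.003. Sequencing depth is unknown, so counting error cannot be given, and choroid plexus RNA differs between libraries.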
